A study of Rattus norvegicus with 3 samples.

Results

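The Vpreb1 cluster of a library is the cluster of cells with the highest mean count of Vpreb1, and it was chosen on that value alone, separately in each of 3 single-cell libraries of rat jaw joint. It is 1 of 15 clusters in the sham library (cluster 11), 1 of 18 in the UAC library (cluster 15) and 1 of 19 in the UAC + miR-330 library (cluster 14), or 3 of 52 clusters in all. It is labelled here as an early B cell cluster with surrogate light chain, from the markers Vpreb1, Igll1 and Ebf1. Vpreb1 chose the clusters and every gene of the cells shaped the clustering, so levels that set a cluster apart from its own library are a description and are not tested.

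Early B cells rearrange the immunoglobulin heavy chain gene before any light chain gene. A new heavy chain is checked by pairing with the surrogate light chain, made of a VpreB protein (Vpreb1 and its copy) and lambda5 (Igll1), and the pair signals through Cd79a and Cd79b as the pre-B cell receptor. Ebf1, Pax5 and Tcf3 switch on this program in bone marrow, Rag1 and Rag2 cut the DNA, and Dntt adds bases to the heavy chain joints.

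The tissue was cartilage and subchondral bone of the mandibular condyle of SD rats, whose marrow spaces hold blood-forming cells. The sham rats had no crossbite and received Vector AAV, the UAC rats had unilateral anterior crossbite (UAC) and Vector AAV, and the UAC + miR-330 rats had the crossbite and miR-330 AAV, so all rats had AAV injected into the joint, and they were kept for 8 weeks. Each library pooled 16 condyles of 8 rats and stands alone for its condition, and single animals of a pool cannot be traced. The sample titles name a control, an establishment and a treatment group and give AAV without its cargo, so which UAC library had miR-330 AAV was taken from the series design. Sex and age were not used here.

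Levels are UMIs (unique molecular identifiers, counted transcripts) per 1000000 UMIs of the cluster, written CPM, with exact Poisson 95% intervals that cover counting error only and not differences between rats or dissociations. Values of the same gene are given in the order sham, UAC and UAC + miR-330, that is clusters 11, 15 and 14. With 1 library per condition nothing could be tested between conditions. A gene is called up or down in a comparison when the levels differ at least 1.5-fold and their intervals do not overlap, among genes with at least 50 UMIs in both clusters together.

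The Vpreb1 cluster held 3786682 UMIs in sham cluster 11, 3300003 in UAC cluster 15 and 3604382 in UAC + miR-330 cluster 14. Those are 4.88% (4.871 to 4.880), 3.56% (3.559 to 3.566) and 3.71% (3.702 to 3.710) of all UMIs of the respective library, with exact binomial 95% intervals. The shares describe how much RNA fell in the cluster and are not compared between conditions, because the genes that differ also define the clusters. The tables give sums and no cells, so fewer cells of a kind and less RNA per cell cannot be told apart.

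The deposited Vpreb1 mean count that chose the cluster was 1.54 in sham cluster 11, 2.67 in UAC cluster 15 and 2.68 in UAC + miR-330 cluster 14. The clusters just outside the rule, sham cluster 13, UAC cluster 11 and UAC + miR-330 cluster 11, had 0.615, 1.05 and 0.888. In CPM the chosen clusters stood at 339.9, 513 and 438, the next at 135, 202 and 145 and the clusters after those at 23.6, 32.0 and 22.6. The choice is clear in each library, with a wide gap between the chosen cluster and the next. Of all Vpreb1 UMIs of a library, 37.6, 31.6 and 34.9% were in the chosen cluster, and most of the others were in the larger cluster next in order. That next cluster is rich in proliferation genes, with Top2a at 633, 639 and 963 CPM against 5.81, 7.27 and 9.99 CPM in the Vpreb1 cluster.

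**Figure D1:**
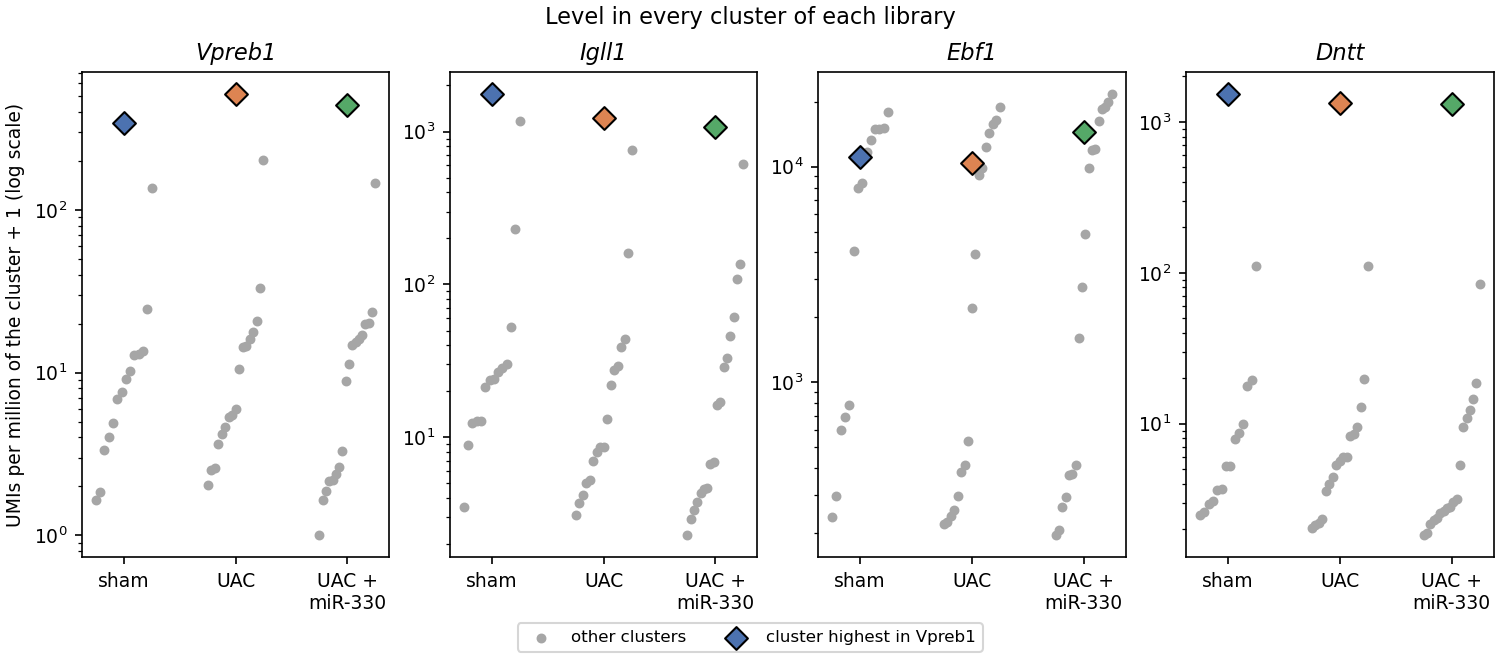
CPM of the cluster plus 1, on a log scale, for Vpreb1, Igll1, Ebf1 and Dntt in every cluster of the 3 libraries, with the Vpreb1 cluster as a coloured diamond and the other clusters as grey points. Vpreb1, Igll1 and Dntt are highest in the Vpreb1 cluster of each library, and Ebf1 is higher in 6 other clusters of sham, 5 of UAC and 5 of UAC + miR-330.

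Of 15 early B cell markers, among them Vpreb1, which chose the cluster, 14 were matched to the tables. In the cluster of every library 13 had at least 50 UMIs. That bar is low, since 11 of 18 neutrophil markers reached it in the sham cluster and 13 of 17 endothelial genes in the UAC + miR-330 cluster. The count is thus no check of the label. Il7r was not matched and was not analysed here. Cd79a was matched through a synonym to an entry with 0 UMIs in all 3 clusters and next to none in the whole libraries, which is not read as absence.

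Igll1, the lambda5 part of the surrogate light chain, had 1750.3, 1232 and 1065 CPM in the Vpreb1 cluster, against 1166, 758 and 611 CPM in the next highest cluster. Vpreb2, the copy of Vpreb1, had 1673, 1022 and 823 CPM against 712, 389.6 and 288 CPM. Dntt had 1522, 1329 and 1322 CPM against 109, 109 and 83.0 CPM. Each of these genes was highest in the Vpreb1 cluster of every library, and Dntt was the most confined of the 3. Lef1, a Wnt pathway factor active in early B cells, had 1647, 1488 and 1706 CPM against 486, 900.2 and 991 CPM in the next cluster. Erg, a factor of blood stem cells and of endothelium, had 535, 641 and 718 CPM against 53.02, 65.2 and 91.6 CPM. Arpp21, a gene of B cell precursors, had 825, 804 and 1218 CPM against 331, 414 and 482 CPM. These genes too were highest in the Vpreb1 cluster in all 3 libraries.

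Rag1 ranked 2, 1 and 1 among the clusters of its library. Its level was 336, 337 and 523 CPM, beside 340.4, 294 and 395 CPM in the other cluster highest in Rag1 (sham cluster 2, UAC cluster 1, UAC + miR-330 cluster 1). That other Rag1 cluster held little Igll1 and Dntt, with Igll1 at 25.7, 26.6 and 16.0 CPM and Dntt at 2.06, 4.35 and 1.81 CPM. High Rag1 together with Igll1 and Dntt is thus found in the Vpreb1 cluster and not there. Vpreb1 was at 9.26, 19.7 and 13.7 CPM there, lower by the rule that chose the clusters. The other Rag1 cluster is, however, the cluster highest in Ebf1, at 17867, 18933 and 21639 CPM, and above the Vpreb1 cluster in Pax5, Cd79b and Vpreb3. Rag2, the partner of Rag1, was low at 33.0, 28.5 and 32.7 CPM and ranked 7, 6 and 7.

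Ebf1, though abundant, did not peak here. Its level was 11083, 10431 and 14505 CPM, rank 7, 6 and 6, below 17867, 18933 and 21639 CPM in the cluster highest in Ebf1. Pax5, which commits cells to the B lineage, had 287, 308 and 429 CPM against 668, 727 and 939 CPM at most. Cd79b, a signaling chain of the receptor, had 516, 349 and 354 CPM against 1618, 1403 and 1306 CPM in the cluster highest in it. Vpreb3, which acts inside the cell during receptor assembly, had 276, 177 and 205 CPM against 514, 432 and 439 CPM. Ighm, the heavy chain of IgM, had 1751, 1713 and 1764 CPM and ranked 10, 11 and 11. These general B lineage genes sat in the middle of each library's clusters, where many clusters are B cells.

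Most genes of later B cells and the proliferation genes Mki67 and Top2a were low. The list of later B cell genes had median log2 ratios to the rest of the library of -2.38, -2.30 and -2.30, but Cd37, its most abundant member, ranked 2, 2 and 2 among the clusters at 999.6, 773 and 681 CPM. Ms4a1, a marker of mature B cells, had 15, 6 and 2 UMIs, while the cluster highest in it had 383, 403 and 667 CPM. Cd74, the invariant chain of class II antigen presentation, had 103, 105 and 50.8 CPM against 8185, 6969 and 5079 CPM in the Ms4a1 cluster. Mki67, a proliferation gene, had 12.4, 17.9 and 38.8 CPM against 942, 1000.4 and 2216 CPM in the cluster highest in Top2a and 531, 548 and 1185 CPM in the cluster next in Vpreb1. The Vpreb1 cluster therefore has the surrogate light chain genes with far less Mki67 and Top2a than its neighbour in Vpreb1 level. Its summed S phase genes ranked 5, 4 and 7 among the clusters. Their sum was 729, 870.3 and 716 CPM, above 361, 348 and 350 CPM in the other Rag1 cluster.

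Of genes with at least 50 UMIs in the Vpreb1 cluster, 663 of 6939 (9.55%) stood at least 1 log2 unit above the rest of the sham library, 663 of 6734 (9.85%) above the rest of the UAC library and 687 of 7100 (9.68%) above the rest of the UAC + miR-330 library. In the pre-B cell receptor and surrogate light chain list Vpreb1, which chose the cluster, its copy Vpreb2 and Igll1 did so in each library. Among B lineage transcription factors 4 of 21, 6 of 22 and 5 of 22 did.

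The 10 genes that lead the cluster, by the median over the libraries of the log2 ratio to all other clusters and with at least 100 UMIs in each, are Jhy, Ccdc141, AABR07065837.1, Dntt, AC111292.1, Erg, Egfl7, Nhsl1, Gucy1a1 and AABR07055191.1. Jhy, best known from cilia, had 167, 161 and 191 CPM and log2 ratios to the rest of 6.81, 6.91 and 6.88. Ccdc141 had 97.4, 99.4 and 142 CPM and log2 ratios of 7.02, 6.30 and 6.54. Dntt, the most abundant of the 10, had log2 ratios of 6.06, 5.89 and 6.29. Of all UMIs of these genes in a library, 85.2, 81.7 and 82.0% (Jhy), 87.0, 74.5 and 78.3% (Ccdc141) and 77.4, 68.7 and 75.1% (Dntt) lay in this cluster, which is the greater part for each. The unnamed transcripts AABR07065837.1, AC111292.1 and AABR07055191.1 had 107, 60.6 and 44.9 CPM, 251, 156 and 156 CPM and 65.5, 57.0 and 33.0 CPM. Egfl7, a secreted protein of endothelium and blood progenitors, had 123, 116 and 79.1 CPM and log2 ratios of 4.91, 5.36 and 5.02. Erg had log2 ratios of 5.12, 5.10 and 5.03. Nhsl1, an actin regulator, and Gucy1a1, a subunit of soluble guanylate cyclase, had 50.4, 56.7 and 89.3 CPM and 46.0, 53.3 and 93.5 CPM. All 10 were above the rest of the library by more than 4 log2 units in every library.

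Of the 50 genes with the highest such ratio in each library, 32 were shared by the sham and UAC clusters, 36 by the UAC and UAC + miR-330 clusters, 27 by the sham and UAC + miR-330 clusters and 25 by all 3. Surrogate light chain genes themselves follow lower on, with log2 ratios to the rest of 3.67, 3.86 and 3.94 for Vpreb2, 3.55, 3.64 and 3.80 for Vpreb1 and 2.92, 3.05 and 3.097 for Igll1, and the dividing cluster holds them too. At the other end stand RatNP-3b, Col1a1 and S100a9, genes of granulocytes and of bone, which were chosen after their values were seen. Their median log2 ratios to the rest were -6.44, -5.73 and -5.10.

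Among the 10 leading genes of each library taken alone, 1 in the sham library (Dntt), 2 in the UAC library (Dntt and Erg) and 1 in the UAC + miR-330 library (Dntt) are early B cell markers. Of the endothelial genes, a list made after values were seen, none is there in the sham library, 2 are in the UAC library (Egfl7 and Erg, the latter on both lists) and 2 are in the UAC + miR-330 library (Emcn and Flt1). Because endothelial genes outnumber early B cell markers there in the UAC + miR-330 library, the 3 clusters are compared by number and by the Vpreb1 rule, and the label is not taken as settled for every cell of cluster 14.

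Genes of other cell types were counted in the cluster as well. The endothelial list was made after values were seen and holds Erg and Egfl7, which lead the cluster. Its ratios to the rest of the library are therefore not ranked against those of other lists. Of 17 endothelial genes in the tables, 4 had at least 50 UMIs in the sham cluster, 4 in the UAC cluster and 13 in the UAC + miR-330 cluster. Their summed level was 798, 991 and 1241 CPM, most of it Erg, against 64.3, 55.7 and 64.0 CPM in the rest of each library. Cdh5, Kdr, Plvap, Cldn5 and Sox17, which define endothelium, had 0 UMIs in the sham cluster, and no gene of the list was at 0 in the UAC and UAC + miR-330 clusters. Cdh5, the cadherin of endothelial junctions, had 0, 6 and 44 UMIs. Emcn, an endothelial surface mucin, had 3, 43 and 108 UMIs. The 10 leading genes of cluster 14 thus include genes that were at or near 0 in the sham cluster, while Dntt differed little between the 3.

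Genes of blood cells of other kinds were also counted in the Vpreb1 cluster. Of 18 neutrophil and granulocyte markers, 11, 10 and 8 had at least 50 UMIs, and their sum was 3494, 2416 and 733 CPM, against 46737, 71060.4 and 52107 CPM in the rest of each library. S100a9, a calcium-binding protein of neutrophils, was the most abundant at 1700.4, 1009 and 246 CPM, and Ltf was at 0 in the sham cluster. The granulocyte sum was highest in the sham cluster and lowest in the UAC + miR-330 cluster, with intervals far apart.

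T and NK cell markers, 14 in the tables, summed to 280.2, 155 and 120.1 CPM, against 89.5, 169 and 149.6 CPM in the rest of each library. By the sum, only the sham cluster was above its library. The sum ranked 3, 4 and 4 among the clusters. The median log2 ratio to the rest (2.82, 0.81 and 1.55) covers only the 8, 4 and 2 markers with at least 50 UMIs in the cluster. That filter leaves out markers low in the cluster, so nothing is drawn from this median. The most abundant was Cd3g in the sham cluster at 78.7 CPM and Cd5 in the UAC and UAC + miR-330 clusters at 43.9 and 47.4 CPM, while Gzma was at 0 in all 3. The sham cluster was the highest, with 8 of the markers at 50 UMIs or more against 4 and 2.

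Mast cell, basophil and eosinophil genes, the second list made after values were seen, summed to 692, 398 and 545 CPM, above the 247, 341 and 255 CPM of the rest. Prg2, the major basic protein of eosinophils, was the most abundant in the sham and UAC clusters at 588 and 126 CPM, and Mcpt2, a mast cell protease, in the UAC + miR-330 cluster at 170.1 CPM. Tpsab1 and Tpsb2, the tryptases of mast cells, were at 0 in all 3 clusters. The list as a whole was lowest in the UAC cluster.

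Dendritic cell markers summed to 37.5, 140.3 and 122 CPM against 20.8, 36.2 and 38.3 CPM in the rest, nearly all of it Flt3, which early lymphoid progenitors also express, and Xcr1 and Cd209a were at 0 in all 3. Monocyte and macrophage markers summed to 157, 144 and 109.9 CPM, led by Lyz2, with Fcgr3a and Ms4a7 at 0 in all 3. Erythroid markers summed to 140.2, 233 and 128 CPM, led by Hba-a1 in the sham and UAC + miR-330 clusters and by Car1 in the UAC cluster, with Alas2 at 0 in the UAC + miR-330 cluster. Each of these 3 lists is a small share of the cluster. Plasma cell markers summed to 153, 146 and 192 CPM, led by Irf4, with Ighg1 at 0 in all 3. Chondrocyte and bone markers summed to 466, 287 and 269 CPM, led by Col1a1 in the sham cluster and by Runx2 in the UAC and UAC + miR-330 clusters, with Sp7 at 0 in all 3. The part of these other cell types' genes in the differences between clusters was not tested.

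**Figure D2:**
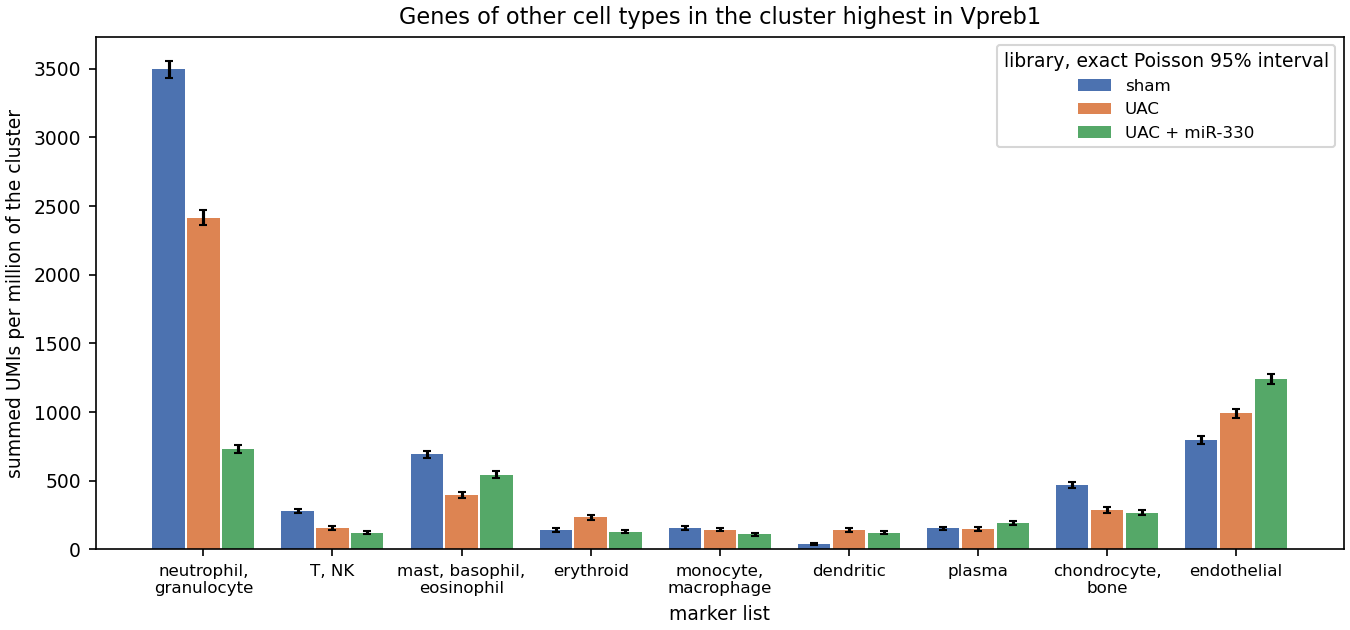
Summed CPM of the Vpreb1 cluster for 9 lists of genes of other cell types, with a bar for each library and exact Poisson 95% intervals. Neutrophil and granulocyte markers are the largest sum in the sham and UAC clusters (3494 and 2416 CPM), and endothelial genes in the UAC + miR-330 cluster (1241 CPM).

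Mitochondrial transcripts were 5.30, 4.82 and 4.78% of the cluster's UMIs, close to 5.32, 4.97 and 4.92% in the rest of each library. Ribosomal protein genes were 18.9, 17.8 and 14.1% of the cluster against 13.0, 11.7 and 9.97% in the rest. The ribosomal share is higher in the Vpreb1 cluster than around it in every library, and it is lowest in the UAC + miR-330 library both inside and outside the cluster. Its part in the differences between the clusters was not tested.

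In UAC against sham, 290 of 8344 genes (3.48%) were up in the Vpreb1 cluster and 135 (1.62%) down, with a median log2 ratio of 0.06. In UAC + miR-330 against UAC, 812 of 8460 (9.60%) were up and 308 (3.64%) down, with a median of 0.07. These shares and medians of all genes are the background for every list that follows. The minimum counts both clusters together, so a scarce gene can pass it through the cluster where it is high. The UAC library is in both comparisons, so they are not independent, and each is given on its own. With the cluster second in Vpreb1 added, 87 of the 290 up calls and 69 of the 135 down calls remained in UAC against sham. In UAC + miR-330 against UAC 520 of the 812 up calls and 105 of the 308 down calls remained.

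The split of calls depends on the scaling. With the deposited mean counts as they stand, every log2 ratio is 0.20 higher in UAC against sham and 0.24 higher in UAC + miR-330 against UAC, which turns the medians of the pre-B cell receptor signaling, stage gene, glycolysis, monocyte and plasma cell lists and the ratio of Ebf1 positive in the former, and in the latter the medians of the surrogate light chain, immediate early, interferon, glycolysis and chondrocyte lists and the ratios of Vpreb1 and Igll1. Up calls are 68.2% of all calls in UAC against sham and 90.3% with the deposited mean counts, 58.8% with median ratio scaling and 62.7% with a total that leaves out mitochondrial, ribosomal protein, haemoglobin and immunoglobulin genes (the reduced total). In UAC + miR-330 against UAC they are 72.5%, but 94.6% with the deposited mean counts, 56.8% with median ratio scaling and 57.7% with the reduced total. The share of up calls in the Vpreb1 cluster thus moves with the scaling chosen.

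Calls near the fold move with it too. Of the genes named in this report, the up calls of Mcm2 in UAC against sham and of Slc16a1 and Jchain in UAC + miR-330 against UAC are lost under both median ratio scaling and the reduced total, and those of Ccng1 and Nhsl1 in the latter under median ratio scaling only. The deposited mean counts undo the down calls of Vpreb3, Ccng1, Nfkb2, S100a9, AC111292.1 and AABR07034739.1 in UAC against sham and of Ikzf3, Mcm2, Prim1, Rpa2, Nfkbib, Apoe and AABR07055191.1 in UAC + miR-330 against UAC. They add up calls of Bst2, Cd83, Eng, Ier3, Ifi27, Nr4a1, Pola1 and RatNP-3b in the former and of Camk4, Ccdc141, Cenpf, Gata2, Inpp5d, Jak1, Ptprc and Smarca4 in the latter. There the IL-7 signaling list then has 1 up and 1 down, pre-B cell receptor signaling 6 up and 0 down, recombination 6 up and 2 down and stage genes 5 up and 0 down. Median ratio scaling and the reduced total add down calls of Cd79b and Nkg7 in UAC against sham and of Nfkbia, Lyz2 and Egfl7 in UAC + miR-330 against UAC, where the former scaling adds Comp as well.

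The pre-B cell receptor and surrogate light chain list had 1 up and 2 down of 6 in UAC against sham (median log2 -0.53), and 0 up and 0 down of 6 in UAC + miR-330 against UAC (median log2 -0.10), beside medians of 0.06 and 0.07 for all genes. Vpreb1 was at 339.9 CPM (322 to 359) in the sham cluster, 513 CPM (489 to 538) in the UAC cluster and 438 CPM (417 to 460.2) in the UAC + miR-330 cluster, log2 ratios 0.59 and -0.23. It was up in UAC against sham, just past the fold, and its UAC + miR-330 level lay between the others. This is the only up call of the list. Vpreb1 chose the clusters, so its call is a description and nothing about the list is drawn from it. The call is lost under median ratio scaling and the reduced total (log2 0.54 and 0.56) and with the cluster second in Vpreb1 added (0.49), and the first of these scalings gives the list 0 up and 3 down. Vpreb2 was at 1673 CPM (1632 to 1715), 1022 CPM (987 to 1057) and 823 CPM (794 to 854), log2 ratios -0.71 and -0.31. It was down in UAC against sham, opposite to Vpreb1, and no interval of its 3 levels overlaps another.

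Vpreb1 and Vpreb2 are near-identical copies, so a transcript of either copy may be counted for the other. Their sum was 2013 CPM (1968 to 2059) in the sham cluster, 1535 (1493 to 1578) in the UAC cluster and 1262 (1225 to 1299) in the UAC + miR-330 cluster, log2 ratios -0.39 and -0.28. Neither difference of the sum reaches 1.5-fold, although the intervals are apart. Vpreb1 made up 16.9, 33.4 and 34.7% of the pair in the Vpreb1 cluster and 18.1, 36.9 and 37.0% in all other clusters of the same libraries. The share of Vpreb1 is thus about the same inside and outside the cluster and differs between the sham library and the others as a whole, and the opposite ratios of the copies are seen beside the same shift outside the cluster. Opposite calls are found only with CPM of the whole cluster, since the deposited mean counts also undo the down call of Vpreb2 (log2 -0.52).

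Igll1 was at 1750.3 CPM (1708 to 1793), 1232 CPM (1195 to 1271) and 1065 CPM (1032 to 1099.6), log2 ratios -0.51 and -0.21, short of the fold in both comparisons, but down in UAC against sham with the cluster second in Vpreb1 added (log2 -0.63). Per UMI of the VpreB pair there were 0.869, 0.803 and 0.845 UMIs of Igll1, so both parts of the surrogate light chain were highest in the sham cluster in nearly the same ratio. Vpreb3 was at 276, 177 and 205 CPM, log2 ratios -0.64 and 0.22, and down in UAC against sham. Cd79b had log2 ratios of -0.56 and 0.02 and Ighm -0.03 and 0.04. Ighm was level across the 3 clusters while the surrogate light chain genes were not.

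**Figure D3:**
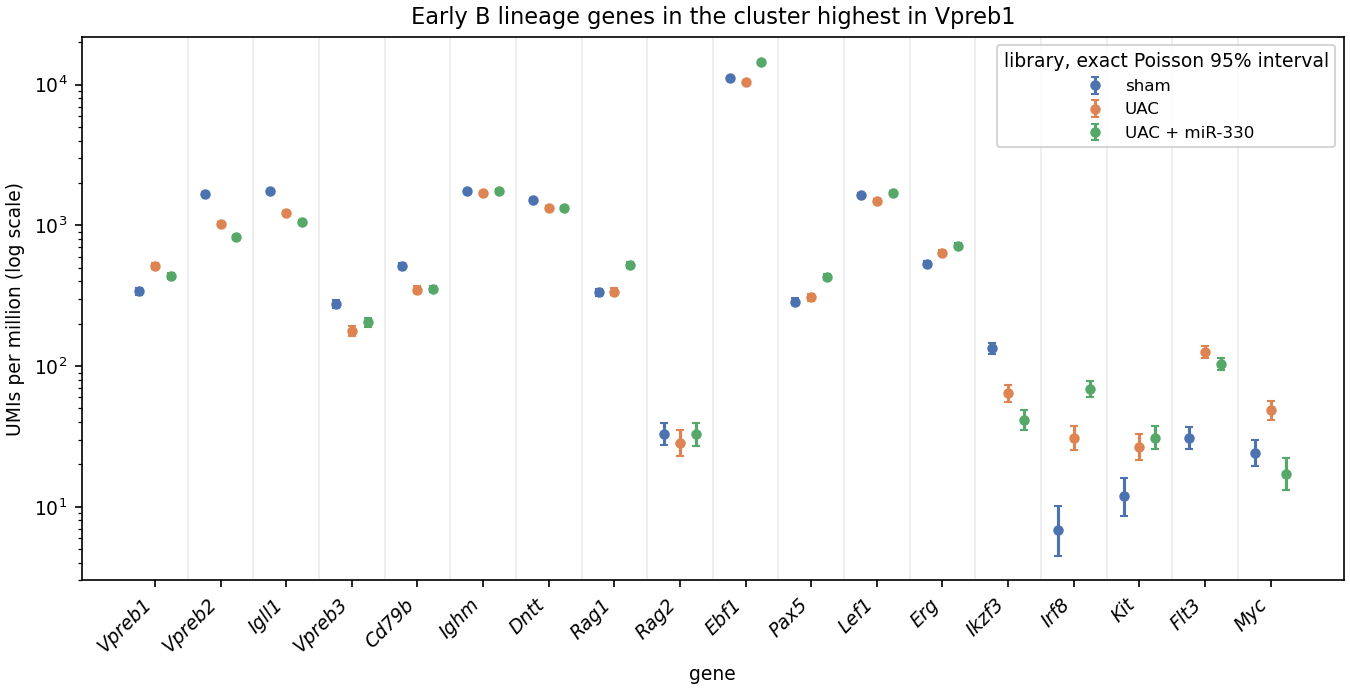
CPM of the Vpreb1 cluster on a log scale for 18 early B lineage genes, with a point for each library and exact Poisson 95% intervals. Vpreb2 and Igll1 are highest in the sham cluster (1673 and 1750.3 CPM), Dntt and Ighm are nearly level, and Irf8 goes from 6.87 to 30.9 and 69.1 CPM.

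The V(D)J recombination and end joining list had 0 up and 0 down of 16 in UAC against sham (median log2 0.05), and 3 up and 2 down of 16 in UAC + miR-330 against UAC (median log2 0.12). Dntt, the transferase, had log2 ratios of -0.20 and -0.01, both short of the fold. Rag1 had 0.01 and 0.63 and was up in UAC + miR-330 against UAC, where its ratio in the other Rag1 cluster was 0.42. That call is lost under median ratio scaling and the reduced total (0.56 and 0.56). Rag2 had -0.21 and 0.20 on few UMIs (125, 94 and 118), with no difference detectable at this depth. Lig4, the ligase of end joining, had 191, 151 and 248 CPM and Atm, the kinase that senses the breaks, 63.9, 53.03 and 103 CPM, both up in UAC + miR-330 against UAC (log2 0.71 and 0.95). Hmgb1, a DNA-bending partner of the Rag proteins, had 111, 126 and 64.6 CPM and Polm, a joining polymerase, 18.7, 18.5 and 6.94 CPM, both down there (log2 -0.97 and -1.40). Hmgb2, the related partner and the second most abundant gene of the list, had 566, 620.0 and 524 CPM and was in no call. Recombination genes thus gave no call in UAC against sham and calls both ways in UAC + miR-330 against UAC.

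The B lineage transcription factors had 1 up and 1 down of 22 in UAC against sham (median log2 0.07), and 1 up and 1 down of 22 in UAC + miR-330 against UAC (median log2 0.22). Ebf1, by far the most abundant, had log2 ratios of -0.09 and 0.48 and Pax5 0.10 and 0.48, the intervals of the UAC and UAC + miR-330 levels apart but under the fold. Tcf4, an E protein, had 1048, 1202 and 1581 CPM and Lef1 log2 ratios of -0.15 and 0.20. These factors were in no call in either comparison, but with the deposited mean counts Ebf1, Pax5 and Tcf4 are up in UAC + miR-330 against UAC (log2 0.71 and 0.72 for Ebf1 and Pax5) and the list has 8 up and 0 down. Irf8, which acts in B cell and dendritic cell development, had 6.87, 30.9 and 69.1 CPM and was up in both (log2 2.15 and 1.16). Ikzf3, a zinc finger factor that rises as pre-B cells mature, had 134, 64.2 and 41.6 CPM and was down in both (log2 -1.05 and -0.62). In the rest of the library Irf8 had log2 ratios of 0.55 and 0.16 and Ikzf3 0.17 and -0.02.

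The list of IL-7 and early growth factor receptor signaling, in which Il7r itself was not matched, had 3 up and 1 down of 19 in UAC against sham (median log2 0.17), and 0 up and 1 down of 19 in UAC + miR-330 against UAC (median log2 -0.25). Kit, the stem cell factor receptor, had 11.9, 26.7 and 31.1 CPM and Flt3, the receptor of early progenitors, 30.9, 126 and 104 CPM, both up in UAC against sham (log2 1.16 and 2.02) and in no call after that. Myc, a regulator of cell growth, had 24.3, 48.5 and 17.2 CPM and was up and then down (log2 0.99 and -1.49). Socs1, an inhibitor of cytokine signaling, had 21.9, 10.0 and 4.99 CPM and was down in UAC against sham (log2 -1.12). Kit and Flt3 were thus lowest in the sham cluster. Kit is also a gene of mast cells and Flt3 of dendritic cells, and the mast cell genes Mcpt2 and Cma1 were up in the same comparison, with Siglech at 3 and 30 UMIs. Prg2 and Il1rl1, of the same list as Mcpt2 and Cma1, were down (log2 -2.22 and -1.83). The sum of that list was 692 CPM in the sham cluster and 398 CPM in the UAC cluster. Outside the cluster Flt3 and Kit had log2 ratios of 1.37 and 0.79. The part of mast and dendritic cell genes in these calls was not tested. The abundant members Jak1, Stat5b and Il2rg, the kinase, factor and shared receptor chain of the IL-7 pathway, had 388, 423 and 548 CPM, 362, 340 and 352 CPM and 153, 184 and 154 CPM and were in no call.

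The pre-B cell receptor signaling list had 0 up and 1 down of 19 in UAC against sham (median log2 -0.04), and 4 up and 0 down of 19 in UAC + miR-330 against UAC (median log2 0.19). Blnk, the adaptor of the receptor, was its most abundant gene at 1278, 1439 and 1616 CPM, log2 ratios 0.17 and 0.17. Lyn, a Src family kinase, had 692, 672 and 1052 CPM, Prkcb, the protein kinase C of B cells, 790.4, 728 and 1123 CPM, Bank1, a scaffold, 89.5, 79.7 and 149 CPM and Pik3ap1, a PI3K adaptor, 145, 107 and 175 CPM. All of these 4 were up in UAC + miR-330 against UAC, by log2 0.65, 0.63, 0.90 and 0.70, and the same ratios in the rest of the library were 0.54, 0.59, 0.83 and 0.28. The calls of Lyn and Prkcb are lost under median ratio scaling (0.58 and 0.55) and under the reduced total, which leaves 2 up and 0 down for the list. Ratios of a like size were found outside the Vpreb1 cluster for all but Pik3ap1. Inpp5d, a lipid phosphatase that dampens the signal, had 709, 795 and 1122 CPM and Zap70, a kinase better known from T cells, 20.6, 9.39 and 15.0 CPM, down in UAC against sham (log2 -1.12).

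Later B cell genes, a list whose light chain members were not matched and were not analysed here, had 0 up and 0 down of 10 in UAC against sham (median log2 0.07), and 1 up and 3 down of 10 in UAC + miR-330 against UAC (median log2 -0.57). Cd37, a tetraspanin, was the most abundant at 999.6, 773 and 681 CPM, log2 ratios -0.37 and -0.18. Cd74 (log2 -1.05), Cd83 (-0.93) and RT1-Ba (-1.20), genes of antigen presentation and activation, were down in UAC + miR-330 against UAC. Their levels were 97.2, 135 and 71.0 CPM for Cd83 and 15.6, 20.6 and 8.88 CPM for RT1-Ba. Cr2, a complement receptor, had 61.3, 57.0 and 96.8 CPM and was up (log2 0.76). Presentation genes were already low in the sham and UAC clusters, and no gene of the list was called in UAC against sham.

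Early progenitor and stage surface genes had 1 up and 0 down of 9 in UAC + miR-330 against UAC (median log2 0.35). No count is given for UAC against sham, where 12 had at least 50 UMIs in the sham cluster and 9 in the UAC cluster. Arpp21 was the most abundant and was up in UAC + miR-330 against UAC (log2 0.60), a call that is lost under median ratio scaling and the reduced total (0.53 and 0.53). Cd27, Cd2 and Il2ra, surface molecules shared with T cells, had 13.7, 1.52 and 1.94 CPM, 14.5, 3.64 and 8.05 CPM and 31.4, 7.88 and 1.11 CPM and were down in UAC against sham (log2 -3.06, -1.95 and -1.97). Of the T and NK cell markers 8 had at least 50 UMIs in the sham cluster and 4 in the UAC cluster, so no count of calls is given for them. Cd3e had 22.2, 1.82 and 4.44 CPM and Cd8a 18.0, 3.64 and 0 CPM. The cluster highest in the sum of these markers had 460 CPM in sham, 3097 in UAC and 2612 in UAC + miR-330. The part of that difference in these falls was not tested. Klrd1, an NK cell receptor with 2 UMIs in the UAC cluster, was 22.7-fold lower there than in the sham cluster (5.97 to 192). In UAC + miR-330 against UAC Cd7 and Nkg7 were down (log2 -2.04 and -1.15). Ptprc and Smarca4, abundant in all 3, had 569, 592 and 777 CPM and 694, 671 and 857 CPM with no call.

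The DNA replication and S phase list had 2 up and 0 down of 17 in UAC against sham (median log2 0.24), and 0 up and 5 down of 17 in UAC + miR-330 against UAC (median log2 -0.35), and summed to 729, 870.3 and 716 CPM against 5088, 4919.7 and 6394 CPM in the cluster highest in Top2a. Mcm2, part of the replicative helicase, had 23.8, 35.8 and 22.5 CPM and Prim1, the primase, 44.6, 71.8 and 45.5 CPM, both up in UAC against sham (log2 0.59 and 0.69) and down in UAC + miR-330 against UAC (-0.67 and -0.66). Ung and Rpa2, of DNA repair and replication, were down in the latter (log2 -1.50 and -0.93). Dut, which clears dUTP, Pola1, the polymerase that starts replication, and Pcna, the sliding clamp, had 212, 227 and 185 CPM, 89.5, 122 and 142 CPM and 69.7, 70.3 and 55.2 CPM with no call. With the deposited mean counts the list has 6 up and 0 down in UAC against sham. In UAC + miR-330 against UAC it then has 0 up and 1 down. Median ratio scaling and the reduced total give 1 up and 0 down in the former and 0 up and 6 down in the latter. S phase genes were a small part of the Vpreb1 cluster throughout, with their highest sum in the UAC cluster.

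The list of G2, mitosis and histone genes had 2 up and 0 down of 13 in UAC against sham (median log2 0.46), and 3 up and 1 down of 17 in UAC + miR-330 against UAC (median log2 0.07), with sums of 502, 692 and 580.4 CPM against 11372, 10700.4 and 15329.7 CPM in the Top2a cluster. Stmn1, a microtubule regulator, had 239.8, 387 and 205 CPM and was up and then down (log2 0.69 and -0.92). Cenpf, of the kinetochore, had 8.19, 23.6 and 33.3 CPM and was up in UAC against sham (log2 1.52). Hist1h1b, Tpx2 and Mki67 were up in UAC + miR-330 against UAC (log2 1.34, 1.20 and 1.11), and Tubb4b, a tubulin, had 77.1, 61.2 and 56.6 CPM with no call. In the rest of the library Mki67 had a log2 ratio of 0.98 in the same comparison. The Vpreb1 cluster kept a low level of mitosis genes in every library.

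Immediate early and dissociation genes, which tissue handling can raise, had 7 up and 0 down of 17 in UAC against sham (median log2 0.57), and 0 up and 4 down of 17 in UAC + miR-330 against UAC (median log2 -0.21). Fos had 33.3, 99.7 and 91.8 CPM, Jun 196, 383 and 447 CPM and Atf3 5.28, 12.1 and 12.8 CPM, each up in UAC against sham (log2 1.58, 0.97 and 1.18). The share of the list up in that comparison is far above the 3.48% of all genes. The list was chosen with earlier results of these data known, so this is a description and was not tested. In the rest of the library Fos had 0.28, Jun 0.56 and Atf3 -0.04. Ier3, Nr4a1 and Junb were down in UAC + miR-330 against UAC (log2 -1.25, -1.01 and -0.91). With the deposited mean counts the list has 10 up and 0 down in UAC against sham. In UAC + miR-330 against UAC it then has 2 up and 3 down (median log2 0.02). The most abundant members, Jund, Hspa8 and Btg2, had 2950.3, 2869.7 and 2231 CPM, 904, 875 and 754 CPM and 587, 633 and 761 CPM with no call. The part of handling in the other differences was not tested.

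Interferon-stimulated genes had 1 up and 0 down of 13 in UAC against sham (median log2 0.03), and 1 up and 1 down of 13 in UAC + miR-330 against UAC (median log2 -0.07). Usp18, a brake on interferon signaling, had 5.81, 19.4 and 6.94 CPM and was up and then down (log2 1.72 and -1.47), and Ifi27 had 60.5, 80.6 and 138 CPM and was up in UAC + miR-330 against UAC (log2 0.77). Psmb9 and Bst2 had 119.6, 100.3 and 81.0 CPM and 50.7, 76.1 and 92.7 CPM with no call. The interferon list as a whole stayed near the median of all genes.

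NF-kB subunits and feedback inhibitors had 0 up and 1 down of 17 in UAC against sham (median log2 0.11), and 0 up and 1 down of 17 in UAC + miR-330 against UAC (median log2 0.16). Nfkb2 was down in UAC against sham (log2 -0.63) and the inhibitor Nfkbib in UAC + miR-330 against UAC (-0.82). Nfkb1, Birc3 and Nfkbia, the most abundant, had 546, 693 and 837 CPM, 295, 366 and 388 CPM and 309, 328 and 221 CPM with no call. With the deposited mean counts the list has 4 up and 0 down in UAC + miR-330 against UAC.

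Cdkn1a, an inhibitor that arrests the cell cycle, had 11.6, 29.7 and 10.3 CPM and was up and then down (log2 1.34 and -1.52). Ccng1, cyclin G1, had 55.2, 36.1 and 56.9 CPM and was down and then up (log2 -0.61 and 0.65). Bid, which promotes apoptosis, had 307, 315 and 264 CPM with no call.

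Glycolysis genes had 0 up and 0 down of 17 in UAC against sham (median log2 -0.07), and 2 up and 1 down of 17 in UAC + miR-330 against UAC (median log2 -0.09). Aldoa had 238, 209.7 and 113 CPM and was down in UAC + miR-330 against UAC (log2 -0.89), while Hk1 and Slc16a1, the hexokinase and a lactate carrier, were up (log2 0.67 and 0.59). Gapdh, Pgk1 and Ldha had 343, 325 and 222 CPM, 319.8, 296 and 225 CPM and 329, 315 and 213 CPM, each lowest in the UAC + miR-330 cluster and short of the fold. Under median ratio scaling and the reduced total Gapdh and Ldha are down (log2 -0.62 and -0.62 for Gapdh, -0.64 and -0.63 for Ldha) and the list turns to 1 up and 4 down with either. Of the genes the study names as miR-330 targets, Tnf was not on the list and 4 were analysed here: Ctgf, Fgfr1, Epor and Il1b. Of these 3 met the minimum in UAC against sham, all lower in UAC (median log2 -0.98), with no call. In UAC + miR-330 against UAC 1, Fgfr1, met it, with no call. With the deposited mean counts Fgfr1 is up in the latter (log2 0.77). Fgfr1, a growth factor receptor, had 36.7, 28.8 and 41.9 CPM, Ctgf 10.3, 5.15 and 5.55 CPM and Il1b 10.6, 5.15 and 2.77 CPM.

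The lists of other cell types were compared in the same way. Neutrophil and granulocyte markers had 1 up and 4 down of 11 in UAC against sham (median log2 -0.48), and 0 up and 7 down of 10 in UAC + miR-330 against UAC (median log2 -1.59). S100a8 had 1138, 815 and 224 CPM, log2 ratios -0.48 and -1.86, Mpo 114, 37.0 and 14.4 CPM, -1.62 and -1.35, and Ngp 99.6, 180 and 50.8 CPM, 0.85 and -1.82. In the rest of the library S100a8 had 0.51 and -0.52. S100a8 fell further in the Vpreb1 cluster than in the rest in UAC + miR-330 against UAC. Camp, another granule gene, had 181, 183 and 88.2 CPM and was down there (log2 -1.05). With the deposited mean counts the list has 3 up and 3 down of 11 in UAC against sham. In UAC + miR-330 against UAC it then still has 0 up and 7 down of 10.

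Erythroid markers had 3 up and 0 down of 5 in UAC against sham (median log2 0.95), and 0 up and 2 down of 5 in UAC + miR-330 against UAC (median log2 -0.53). Hba-a2 had 29.8, 33.0 and 14.1 CPM, Tfrc, the transferrin receptor, 18.0, 36.7 and 35.8 CPM and Car2 15.3, 29.7 and 20.5 CPM. Monocyte and macrophage markers had 0 up and 0 down of 3 in UAC against sham (median log2 -0.02), and 0 up and 0 down of 3 in UAC + miR-330 against UAC (median log2 -0.29), with Lyz2, Ctss and Adgre1 at 116, 95.2 and 65.5 CPM, 20.6, 23.0 and 18.9 CPM and 13.2, 13.0 and 15.8 CPM. Neither kind was abundant in the cluster. Dendritic cell markers had 1 up and 0 down of 1 in UAC against sham (median log2 2.02), and 0 up and 0 down of 2 in UAC + miR-330 against UAC (median log2 0.00). Siglech, of plasmacytoid dendritic cells, had 3, 30 and 40 UMIs. Plasma cell markers had 0 up and 0 down of 4 in UAC against sham (median log2 -0.02), and 2 up and 0 down of 5 in UAC + miR-330 against UAC (median log2 0.28), the up calls being Jchain (45.7, 33.3 and 50.5 CPM) and Xbp1 (11.1, 14.5 and 30.0 CPM). Mzb1 had 32.5, 28.2 and 27.2 CPM with no call, so plasma cell genes too were scarce here.

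Chondrocyte and bone markers had 1 up and 4 down of 6 in UAC against sham (median log2 -0.98), and 0 up and 1 down of 6 in UAC + miR-330 against UAC (median log2 -0.17). Col1a1, the main bone collagen, had 204, 60.3 and 50.8 CPM, Sparc 115, 58.2 and 67.7 CPM and Comp 35.1, 13.0 and 6.66 CPM, all down in UAC against sham (log2 -1.75, -0.99 and -1.42). Runx2, a bone factor also found in dendritic cells, had 21.1, 106 and 99.6 CPM and was up (log2 2.32), the reverse of the matrix genes. In the rest of the library Col1a1 had -1.16 and Runx2 -0.09.

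Mast cell, basophil and eosinophil genes are given without a count of calls too, since their list was made after values were seen. Mcpt2 and Cma1, mast cell proteases, had 14.5, 82.1 and 170.1 CPM and 10.0, 51.2 and 96.0 CPM and were up in both comparisons (log2 2.49 and 1.05 for Mcpt2, 2.34 and 0.90 for Cma1). Gata2, a factor of mast cells and progenitors, had 3.43, 39.1 and 52.4 CPM and was up in UAC against sham (log2 3.46). Both proteases thus rose at each step, while Prg2 fell in UAC against sham. Il1rl1, the IL-33 receptor, had 31.7, 8.79 and 5.27 CPM and was down in UAC against sham (log2 -1.83).

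Endothelial genes are given without a count of calls, because 4 had at least 50 UMIs in the UAC cluster and 13 in cluster 14, and their list was made after values were seen. Their summed level of 991 and 1241 CPM in these clusters differs by less than 1.5-fold. Erg alone makes up 641 and 718 CPM of these sums, so they say little about the other members. Col4a1, a basement membrane collagen, had 1, 13 and 147 UMIs, and Adgrl4, an endothelial receptor, 1, 11 and 90, up in UAC + miR-330 against UAC by log2 3.32 and 2.85. Cdh5 was up by 2.65 on 6 and 44 UMIs. The endothelial genes that rose are a different set from Erg, Egfl7 and Eng, which were in no call (Eng had 69.5, 96.1 and 97.4 CPM). Of all Adgrl4 UMIs of its library 98.9% were in cluster 14, and of Cdh5 81.5%. The part of endothelial transcripts in the other differences of cluster 14 was not tested.

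Of genes with at least 100 UMIs, 233 were up and 98 down in UAC against sham. The 10 largest rises were Pla2g2a, Car1, LOC108348108, Dok6, Pf4, Ltbp1, Gata2, Apoe, Igh-6 and Mcpt2. Pla2g2a, a secreted phospholipase, had 3, 203 and 205 UMIs, a ratio of 77.6 in UAC against sham with a counting interval of 26.2 to 379.6, and a log2 ratio in the rest of the library of 0.14. Car1, a carbonic anhydrase of erythroid precursors, had 2.90, 57.6 and 12.2 CPM and LOC108348108 3.17, 56.7 and 2.77 CPM. Both stood high in the UAC cluster only. Dok6, an adaptor, had 2.90, 42.7 and 36.1 CPM, Pf4, a platelet chemokine, 2.38, 31.8 and 63.8 CPM and Ltbp1, of latent TGF-beta, 3.43, 40.9 and 46.6 CPM. Apoe, a lipid carrier, had 6.87, 50.6 and 30.8 CPM and Igh-6, an immunoglobulin heavy chain entry, 3.96, 28.8 and 5.83 CPM. Of these Igh-6 rose in the rest of the library as well (log2 2.82 in the cluster and 2.74 in the rest), and the others did so by 1.06 log2 units at most.

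The 10 largest falls in UAC against sham were Stfa2l1, AABR07034362.2, Ccl5, Gzmm, LOC689230, AABR07017902.1, Skap1, Prg2, Camk4 and Il2ra. Stfa2l1, a stefin of granulocytes, had 112 UMIs in the sham cluster and 0 in the UAC cluster, at least 32.5-fold lower on a floor of 3 UMIs. Ccl5, a chemokine, and Gzmm, a granzyme, both of T and NK cells, had 45.4, 1.21 and 1.11 CPM and 35.4, 1.52 and 1.66 CPM (log2 -5.06 and -4.41). Skap1 and Camk4, signaling genes of T cells, had 70.2, 14.5 and 19.1 CPM and 42.3, 10.3 and 17.5 CPM. Ccl5, Gzmm, Skap1 and Camk4 are not on the list of T and NK cell markers, and each was highest in the sham cluster. Whether genes of such cells were more frequent among the falls than among all genes was not tested. In the rest of the library Ccl5 had 1.24, Gzmm 0.50, Skap1 1.94 and Camk4 2.76, the opposite sign. The cluster highest in summed T and NK cell markers had 460 CPM in sham, 3097 in UAC and 2612 in UAC + miR-330. The libraries thus differ in how far these markers are gathered in 1 cluster. The part of that difference in these falls and opposite signs was not tested. The transcripts AABR07034362.2, LOC689230 and AABR07017902.1 had 217, 35.4 and 32.2 CPM in the sham cluster and 2.12, 2.73 and 2.73 in the UAC cluster. Prg2 had a log2 ratio of -2.22 here and 0.70 in the rest.

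In UAC + miR-330 against UAC, 704 genes with at least 100 UMIs were up and 260 down. Among the largest rises were Col4a1, Adgrl4, AABR07000398.1, Arhgap29, AABR07034739.1, Adamts3, AABR07015057.1, Pkia and Cep112. Arhgap29, a GTPase regulator and on the endothelial list, had 2, 15 and 97 UMIs, log2 2.53. The unnamed AABR07000398.1 had 189, 93.9 and 651 CPM (log2 2.79, rest 2.34) and AABR07015057.1 17.4, 12.4 and 52.4 CPM (log2 2.06, rest 2.19). Both rose by a like amount outside the cluster. AABR07034739.1 had 96.4, 63.6 and 330.2 CPM (log2 2.37, rest -0.33). Adamts3, a procollagen protease, had 8.19, 5.76 and 27.7 CPM (log2 2.24). Pkia, an inhibitor of protein kinase A, and Cep112, of the centrosome, had 11.4, 9.39 and 33.6 CPM and 22.4, 10.0 and 35.0 CPM. The sham levels of most of these genes, the endothelial ones apart, lay near or above the UAC levels.

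The 10 largest falls in UAC + miR-330 against UAC were Prg3, LOC108348108, Tox, Ctsw, Retnlg, Igh-6, Car1, S100a9, Pcp4l1 and Mmp8. Prg3, an eosinophil granule protein, had 28, 109 and 1 UMIs, 119-fold lower in UAC + miR-330 with a counting interval of 20.9 to 4745. Tox, a factor of T and innate lymphoid cells, had 32.5, 58.5 and 9.71 CPM and Ctsw, a protease of cytotoxic cells, 23.0, 47.0 and 8.05 CPM (log2 -2.57 and -2.53). Tox and Ctsw were highest in the UAC cluster. Retnlg and Mmp8, granulocyte genes, had 79.0, 33.3 and 5.83 CPM and 78.7, 41.5 and 11.1 CPM, and S100a9 a log2 ratio of -2.04 against -0.53 in the rest. Pcp4l1, a calmodulin-binding protein, had 30.1, 57.9 and 14.1 CPM, and its ratio in the rest was -3.23. Car1, LOC108348108 and Igh-6 are also among the largest rises in UAC against sham, so all 3 were highest in the UAC cluster, which both comparisons share.

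Stretches from promoters of surrogate light chain genes and of Dntt and Vpreb3 are shown to let the shared copy of Vpreb1 and Vpreb2 be seen, in RefSeq sequence of GRCr8 from 250 bases before to 50 bases after the start of the gene. RefSeq calls these genes Vpreb1a and Vpreb1b, and their windows are chr11:97630924-97631223 on the plus strand and chr11:96514355-96514654 on the minus strand. With the windows shifted by 124 bases against each other, 171 of 176 overlapping positions (97.2%) are the same, with an unbroken run of 90 bases. The motifs searched on both strands were CCCNNGGG (the core that EBF factors bind), ATGCAAAT (the octamer) and CAGGTG (an E-box of E proteins), which are in 12.4%, 1.78% and 18.8% of 33469 promoters of that length. The E-box of Vpreb1 starts at position -90 and that of Vpreb2 at -214, inside that overlap. In the lines that follow, capitals mark the motif.
Vpreb1: gactttccagCAGGTGcttcctccca
Vpreb2: gactttccagCAGGTGcttcctccca
Igll1: gacccaggagCCCTTGGGgacttaggta
Dntt: gaagttgtcaCCCCAGGGtggcacccac
Vpreb3: cagtgggctgATTTGCATgctctgttgt

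The stretches printed for Vpreb1 and Vpreb2 are the same in every base, which the whole windows are not. Of 11 promoters searched, those of Ebf1, Erg and Rag2 held none of the motifs, and E-boxes of Rag1, Lef1, Cd79a and Dntt (at position 39) are not printed. The EBF core of Igll1 lies in chr11:97642937-97643236 (plus strand) at position -221 and that of Dntt in chr1:249805552-249805851 (plus strand) at -96. The octamer of Vpreb3 lies in chr20:12718177-12718476 (minus strand) at position -56, read on the other strand. A match describes the letters of these windows only.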

How the data were processed

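The tables hold mean counts per cluster as deposited by the authors, a normalized signal in which the UMIs of a gene are divided by 1 number per cluster. Each mean was divided by the smallest positive mean of its cluster to recover UMIs, and all values came out whole within 1.0e-07. The authors' log2 fold changes and p-values (104 columns) compare clusters within a library and were not used. The submitters' notes name Cell Ranger 7.0, STAR, Seurat 4.0.1, GRCh38 and mm10, and no rat build. Gene names come from the tables, and names on more than 1 identifier (101, 106 and 116 for sham, UAC and UAC + miR-330) were added together.

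Levels are UMIs divided by all UMIs of the cluster, in CPM, and log2 ratios add 0.5 UMI to each count. Of 388 genes in 22 lists, 358 were matched by name, 6 through RefSeq synonyms and 24 not at all. Members and lists were chosen with earlier results of these data known, and 2 further lists (endothelial genes, and mast cell, basophil and eosinophil genes) were made after values were seen. The genes named are taken from the 10 leading the cluster, in each list up to 3 with the most UMIs and up to 3 of the largest calls each way, in each comparison the 10 largest rises and falls at 100 UMIs or more, and Vpreb1, Vpreb2, Vpreb3, Igll1, Ebf1, Rag1, Rag2, Dntt, Il7r, Pax5 and Ighm. Ms4a1, Cd79b, Emcn, Flt1, Top2a, Cd5 and others named as list leaders or zeros were chosen after their values were seen. Some genes and 1 list that these rules select are not reported here.

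Mitochondrial entries were taken from the prefix AY172581, an assumption. Doublets and free RNA were not treated, since only cluster sums were used. The scripts were tested on simulated data. Alternatives for the scaling, the UMIs added, the minimum, the fold and the cluster choice were run. Analysis used Python 3.11.15, numpy 2.4.6, pandas 2.3.3, scipy 1.17.1 and matplotlib 3.10.9.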

Additional observations from a re-analysis of the deposited data

How the results depend on the processing

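Of the counts of calls among all genes and the medians of B lineage and cell cycle lists, 148 values under the 9 alternatives stayed within 1.5 times the main count or 0.1 log2 of the main median and 50 did not. Median ratio scaling, a total that leaves out the most abundant gene classes, and 5 UMIs added moved none of these counts and medians. Calls within lists did move. With median ratio scaling the surrogate light chain list had 0 up and 3 down instead of 1 up and 2 down in UAC against sham, and in UAC + miR-330 against UAC pre-B cell receptor signaling had 2 up and 0 down instead of 4 up and 0 down, recombination 2 up and 2 down instead of 3 up and 2 down, stage genes 0 up and 0 down instead of 1 up and 0 down and glycolysis 1 up and 4 down instead of 2 up and 1 down, and that total gave the same counts. The cluster highest in Igll1 was the same cluster in each library and changed nothing. Its values, and the medians at 2-fold, are among the 148 by construction.

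With the deposited mean counts, in UAC against sham the calls were 748 up and 80 down, and median log2 ratios were surrogate light chain -0.34, transcription factors 0.26, recombination 0.24, IL-7 signaling 0.36, pre-B cell receptor signaling 0.15, later B cell genes 0.26, stage genes 0.15, S phase 0.43 and G2 and mitosis 0.65, and the log2 ratio turned positive for Ebf1, 0.11. With the deposited mean counts, in UAC + miR-330 against UAC the calls were 1882 up and 108 down, and median log2 ratios were surrogate light chain 0.14, transcription factors 0.45, recombination 0.35, IL-7 signaling -0.0174, pre-B cell receptor signaling 0.43, later B cell genes -0.33, stage genes 0.59, S phase -0.11 and G2 and mitosis 0.30, and the log2 ratio turned positive for Vpreb1, 0.0072 and Igll1, 0.0257. With genes of at least 1 UMI, in UAC against sham the calls were 437 up. With genes of at least 1 UMI, in UAC + miR-330 against UAC median log2 ratios were later B cell genes -0.38 and G2 and mitosis 0.23. With genes of at least 200 UMIs, in UAC against sham the calls were 136 up and 48 down, and median log2 ratios were later B cell genes -0.037 and G2 and mitosis 0.18. With genes of at least 200 UMIs, in UAC + miR-330 against UAC the calls were 524 up and 176 down, and median log2 ratios were recombination 0.38, later B cell genes -0.26 and G2 and mitosis -0.11. At 2-fold, in UAC against sham the calls were 116 up and 77 down. At 2-fold, in UAC + miR-330 against UAC the calls were 216 up and 98 down. With the cluster second in Vpreb1 added, in UAC against sham the calls were 444 up, and median log2 ratios were surrogate light chain -0.38, recombination -0.0846, later B cell genes -0.0669 and G2 and mitosis -0.0822. With the cluster second in Vpreb1 added, in UAC + miR-330 against UAC the calls were 1284 up, and median log2 ratios were surrogate light chain -0.30, recombination 0.23, pre-B cell receptor signaling 0.29, later B cell genes -0.18, S phase -0.10 and G2 and mitosis 0.23. Fewer calls at 200 UMIs and at 2-fold, and more at 1 UMI, follow from the number of genes tested and the fold itself. The deposited mean counts add a constant to every ratio. With the cluster second in Vpreb1 added, 87 of the 290 main up calls and 69 of the 135 down calls remained in UAC against sham, and 520 of 812 and 105 of 308 in UAC + miR-330 against UAC, so most up calls were lost in the former and most down calls in the latter. The cause was not tested.

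Each condition had 1 library, so leaving out a replicate was impossible, no spread between replicates is known, and no paired analysis was possible because no samples share a pair. Intervals cover counting error only. Genes near the minimum of 50 UMIs can show only large ratios. Cluster sums hold no cells, so cells of other types in the cluster, doublets and free RNA cannot be separated from the cells that express Vpreb1. Each library was clustered by itself, so cluster boundaries need not be the same. Vpreb1 and Vpreb2 are near-identical copies, and their split was not resolved.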
